A study of Mus musculus with 6 samples.

Results

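The genes described here act in mitosis, at the spindle and at the kinetochore, and they were followed in mouse multiple myeloma cells with and without insulin-like growth factor 1 (IGF-1), a growth and survival factor for these cells. The list held 50 genes chosen by name, with earlier results of these data known. Of these, 46 were paired with at least 1 probe set that the platform annotation gives to a single gene, out of 12393 genes named that way on the array. Each gene was read from its brightest probe set, and the other 4 (Ccnb1, Espl1, Cdca8 and Kif20b) were not analysed here. IGF-1 cells were kept for 12 h in serum-free medium with 100 ng/ml IGF-1, and control cells for 12 h in the same medium with no IGF-1. Each group had 3 arrays, both were labelled as malignant plasma cells of the bone marrow, and no strain, age, sex or cell line is given in the labels. Whether the 3 samples of a group came from separate cultures or animals is not labelled; p-values then reflect only sample-to-sample spread, possibly technical.

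Cells enter mitosis when cyclin-bound CDK1 is switched on by CDC25 phosphatases, and the Polo and Aurora kinases then drive spindle building and chromosome attachment. Kinetochores, built on centromeres marked by the histone CENP-A, hold the microtubules, while the spindle checkpoint restrains CDC20 until every chromosome is attached. The anaphase-promoting complex (APC/C) then marks cyclins and securin for destruction, and the central spindle directs cytokinesis. Many of these genes are transcribed late in the cell cycle, under control of the DREAM and MYBL2-FOXM1 complexes, which act through a promoter element called the CHR, often beside CCAAT boxes bound by NF-Y.

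Promoter stretches of 5 members that changed with IGF-1 are printed to show this shared layout in both directions of change. Each is the 120 bases just before an annotated transcript start, read 5′ to 3′ on the gene's strand from RefSeq (GRCm38.p6). Capitals mark the CHR core TTTGAA and the CCAAT box, searched on both strands, so that TTCAAA and ATTGG are the same motifs read from the other strand.
Plk1: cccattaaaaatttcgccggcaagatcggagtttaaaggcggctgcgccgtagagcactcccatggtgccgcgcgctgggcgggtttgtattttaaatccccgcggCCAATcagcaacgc
Ube2c: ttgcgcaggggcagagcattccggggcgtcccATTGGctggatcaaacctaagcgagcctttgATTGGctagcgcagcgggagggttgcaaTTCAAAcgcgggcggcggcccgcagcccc
Prc1: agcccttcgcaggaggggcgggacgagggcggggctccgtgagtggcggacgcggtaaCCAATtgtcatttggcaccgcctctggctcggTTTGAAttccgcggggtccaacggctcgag
Cenpa: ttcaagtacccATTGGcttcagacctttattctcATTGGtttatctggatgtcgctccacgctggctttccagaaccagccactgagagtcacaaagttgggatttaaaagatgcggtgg
Kif11: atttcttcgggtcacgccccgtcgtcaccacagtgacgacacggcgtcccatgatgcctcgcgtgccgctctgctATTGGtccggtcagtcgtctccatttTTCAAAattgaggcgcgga
The first 3 belong to genes that rose and the last 2 to genes that fell, and all 5 lie on the + strand. They span chr7:122159315-122159434 (Plk1), chr2:164769809-164769928 (Ube2c), chr7:80294356-80294475 (Prc1, the second of its annotated starts), chr5:30666766-30666885 (Cenpa) and chr19:37376262-37376381 (Kif11). In Plk1 and Cenpa the CHR core lay after the start, at base 31 and base 17 of the transcript, and is not in the stretch shown.

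Over the whole window of 300 bases, 250 before to 50 after the start, 31 of the 43 members with a promoter entry (72.1%) held the CHR core, against 14.2% of the 5676 tested genes with an entry. The CCAAT box was present in 76.7% of members and 42.6% of tested genes, and both motifs together in 62.8% and 6.84%. Of the 7 members that rose and have an entry, 6 held the CHR core, as did both that fell and 20 of the 29 that did not pass the test. The motif was thus common in members whatever their change with IGF-1. Members of this list are known for such promoters, so the shares describe the list and are no site or cause. The 2 motifs overlapped in 47 of 32851 windows.

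**Figure D1:**
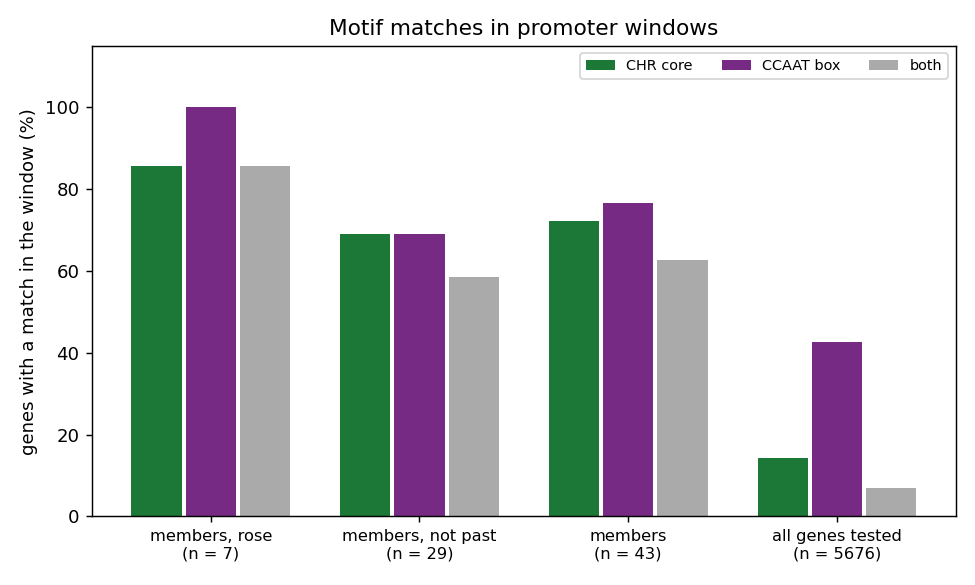
Share of genes (%) whose promoter window of 300 bases holds the CHR core, the CCAAT box or both, for members that rose (n = 7), members that did not pass the test (n = 29), all members with an entry (n = 43) and all tested genes with an entry (n = 5676). The CHR core was found in 85.7% of members that rose, 69% of those that did not pass and 14.2% of all genes tested.

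The listed mitosis genes as a group leaned upward with IGF-1, with modest changes in single genes. Because earlier results were known when the list was chosen, the shares below describe the list and are no test of it. Of the 44 members that passed the filter on low signals, 9 rose, 2 fell and 33 did not pass the test (20.5% and 4.55%). Among all 6895 genes tested, 7.05% rose and 8.05% fell, by the same adjusted p under 0.05 from limma. The 9 that rose were Plk1, Tpx2, Ccna2, Cdc25b, Hmmr, Aurka, Ube2c, Prc1 and Cdca3, by 1.27-fold to 1.63-fold, and the 2 that fell were Kif11 and Cenpa. By sign alone 36 of the 44 members were higher and 8 lower, while 48.7% of all tested genes were higher. The median log2 difference, IGF-1 minus control, was 0.16 for the members and -0.01 for all tested genes.

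The count of members that rose was lower with any 1 array left out, as was the count over all genes tested. Of those genes 248 to 415 then rose and 286 to 483 fell, against 486 and 555 with all 6 arrays. Leaving out IGF-1 1 or IGF-1 2 left 3 members that rose, leaving out control 2 left 4, IGF-1 3 or control 3 left 5, and control 1 left 6. For the falls, 1 was left without IGF-1 2 and 0 without IGF-1 3, control 1 or control 2. Plk1, Ccna2 and Tpx2 kept their calls in every one of the 18 other settings run. Scaling the arrays to the spiked hybridization controls moved the median of all genes to 0.26 and that of the members to 0.44. With it 21 members rose and 0 fell, while 1691 of all 6895 genes tested rose and 141 fell. The added 12 members were Ccnb2, Cdk1, Aurkb, Bub1, Bub3, Mad2l1, Ttk, Birc5, Incenp, Kif4, Kif23 and Top2a. With no filter on low signals the calls of Aurka, Ube2c, Cdca3, Prc1, Hmmr and Kif11 were lost, and with eBayes without a trend those of Aurka, Ube2c, Cdca3 and Prc1.

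**Figure D2:**
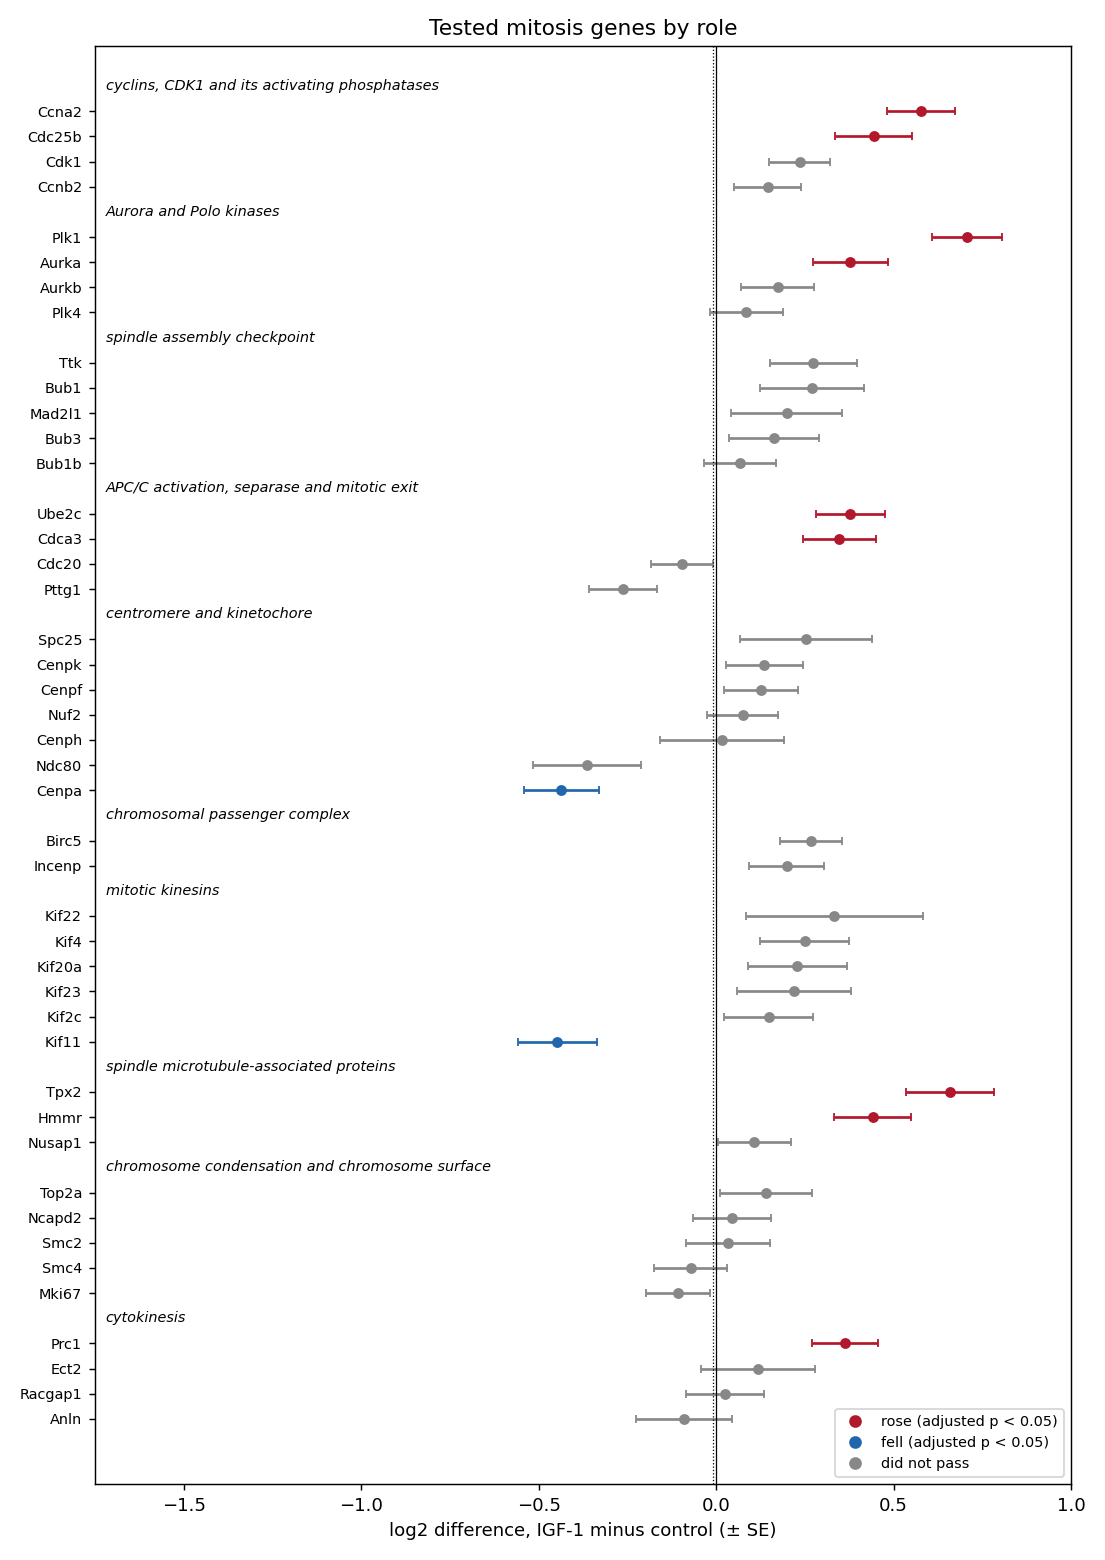
Log2 difference of each of the 44 tested members, IGF-1 minus control, with its standard error, grouped by role and coloured by call; the dotted line is the median of all tested genes. Points lie mostly right of 0, from -0.45 for Kif11 to 0.71 for Plk1, and Kif11 and Cenpa are the lowest.

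Array by array, the median member lay 0.24, 0.15 and 0.09 above its control mean (log2) in IGF-1 1, 2 and 3, and 0.07, 0.01 and -0.04 from it in control 1, 2 and 3. All IGF-1 arrays were therefore above all control arrays by this median, but IGF-1 3 and control 1 were nearly level. Counted by sign, 38, 31 and 29 of the 44 members lay above their mean control signal in IGF-1 1, 2 and 3. In control 1, 2 and 3 these counts were 33, 23 and 14, so that control 1 exceeded IGF-1 2 and IGF-1 3 by this measure. Member by member, all 3 IGF-1 arrays lay above all 3 control arrays for 14 of the 44 (31.8%) and below them for 4 (9.09%). Over all genes tested these shares were 17.1% and 18.2%.

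**Figure D3:**
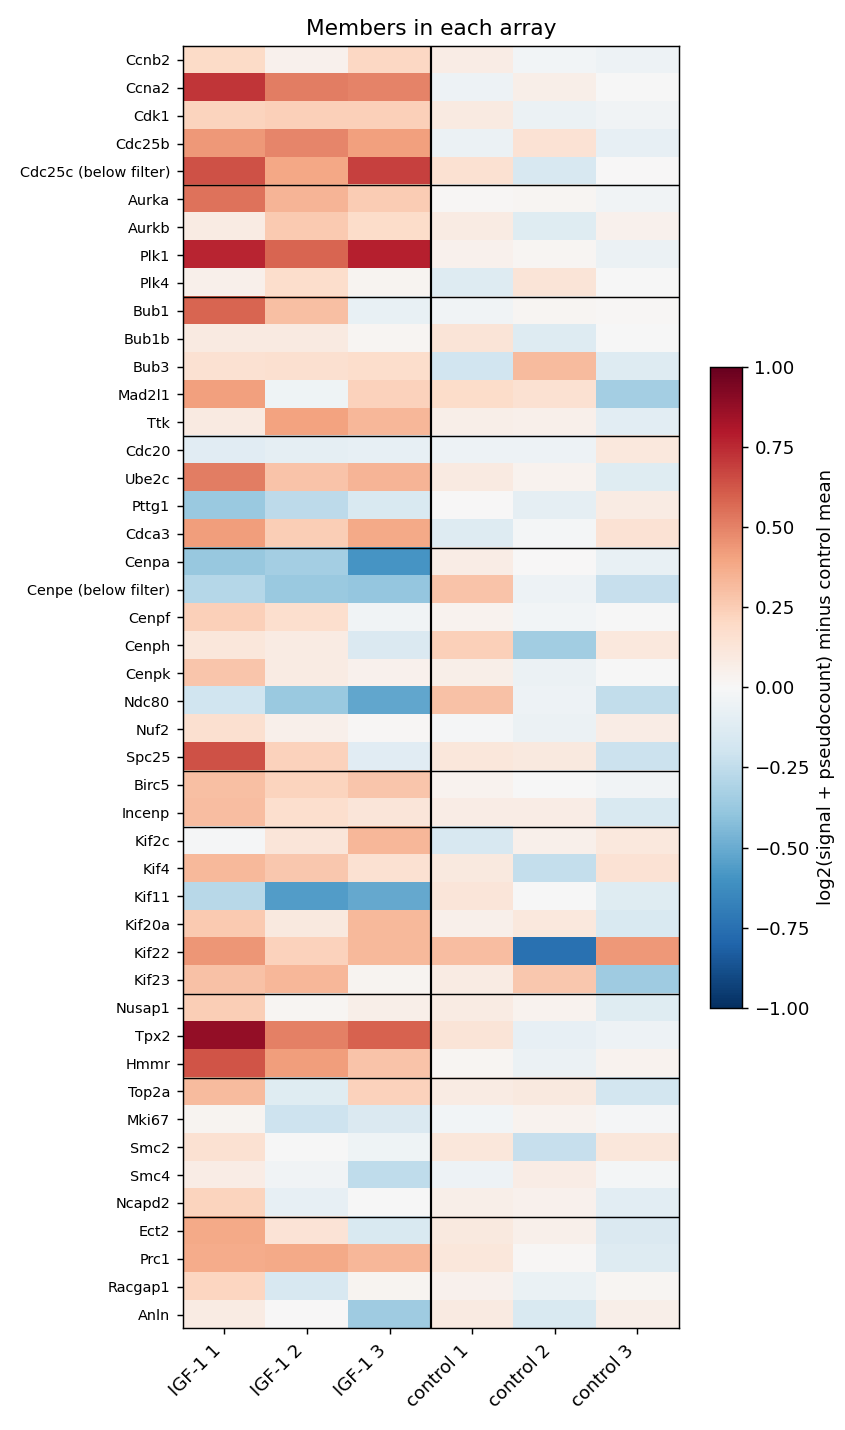
Each row is 1 of the 46 measured members and each column an array, IGF-1 on the left; colour is log2(signal + pseudocount) minus the gene's control mean, and lines separate the roles. Plk1, Tpx2 and Ccna2 are red in all 3 IGF-1 arrays, Cenpa and Kif11 are blue in them, and Kif22 is low in control 2 alone.

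The arrays were deposited on a common scale, with a trimmed mean of 150.1 in each, and arrays of 1 group correlated at 0.978 to 0.984 (log2), those of different groups at 0.956 to 0.965. The 3′ over 5′ ratio of Gapdh, a measure of RNA integrity, was 0.748 to 0.805 in IGF-1 arrays and 0.751 to 0.843 in control arrays. Plasma cell markers gave clear signal, such as Sdc1 at 865 to 1030 in IGF-1 and 727 to 984 in control arrays, while Cd79a and Igk lay below the signal filter. Of 10 tested plasma cell markers, 2 fell (Tnfrsf17 and Slamf7) and 0 rose, with a summed signal of 13388 to 13903 in IGF-1 and 14195 to 15386 in control arrays. By sign 3 were higher and 7 lower (median log2 difference -0.11), and Sdc1 had the highest difference (0.14). Markers of myeloid cells were also present. Of 12 tested neutrophil markers 4 fell and 0 rose, with a summed signal of 24268.5 to 27264 in IGF-1 and 26530 to 32024 in control arrays. By sign 1 was higher and 11 were lower (median -0.29). Of 9 tested macrophage markers 3 fell and 1 rose, with sums of 4905 to 6714 in IGF-1 and 5709 to 7563 in control arrays. By sign 1 was higher and 8 were lower (median -0.34). Of 5 tested erythroid markers 1 rose and 0 fell, with sums of 878 to 1063 in IGF-1 and 860 to 1084 in control arrays. By sign 2 were higher and 3 lower (median -0.03). Stromal and endothelial markers had 3 of 8 past the filter, of which 0 rose and 0 fell. Their sums were 362 to 468 in IGF-1 and 307 to 396 in control arrays, and by sign 3 were higher and 0 lower (median 0.04). Among all 6895 tested genes 7.05% rose and 8.05% fell, with a median of -0.01. None of the 10 measured early and mature B cell markers or the 7 T and NK cell markers passed the filter, and no marker was listed at 0. The part of these other cells in the mitosis results was not tested. In such bulk samples a change in the number of dividing cells and a change in RNA per cell cannot be told apart.

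Among cyclins, CDK1 and its activating phosphatases, 2 of 4 rose and the other 2 did not pass. Ccna2 encodes cyclin A2, which acts in S phase and at entry into mitosis. Its signal was 908, 786 and 778 in the IGF-1 arrays, against 527, 569 and 543 in the control arrays. The groups did not overlap, and the 1.49-fold rise had a log2 difference of 0.58 ± 0.10 (SE, adjusted p = 0.0041). The second probe set of the gene rose too, by 0.37. Cdc25b, a phosphatase that activates CDK1 at the start of mitosis, gave 201, 210 and 197 in the IGF-1 arrays and 138, 161 and 136 in the control arrays. Every IGF-1 array was above every control array, with a difference of 0.44 ± 0.11 (adjusted p = 0.023). Its call was lost without any 1 array but control 2 (highest adjusted p 0.0789).

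Cdk1 itself, the kinase at the centre of mitotic entry, measured 974, 983 and 984 in IGF-1 arrays and 887, 799 and 808 in control arrays. The groups did not overlap, but the difference of 0.24 ± 0.09 did not pass (adjusted p = 0.091). Ccnb2, a B-type cyclin that partners CDK1, had overlapping groups and a difference of 0.15 ± 0.09 (adjusted p = 0.34). Cdc25c, the sister phosphatase of Cdc25b, was too dim for the test, with signals of 45, 35.4 and 46.9 in IGF-1 arrays and 27.9, 19.4 and 23.5 in control arrays. Its IGF-1 arrays were all above its control arrays, at a level below the filter of 53.6.

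Among the Aurora and Polo kinases, 2 of 4 rose, 0 fell and 2 did not pass. Plk1 encodes Polo-like kinase 1, which acts from mitotic entry to cytokinesis, and it had the largest difference of all members. Its signal was 473, 416 and 478 in IGF-1 arrays, against 281, 276 and 261 in control arrays. The groups stood well apart, with a 1.63-fold rise and a log2 difference of 0.71 ± 0.10 (adjusted p = 0.0017). Aurka encodes Aurora A, a kinase of centrosomes and spindle poles. It measured 350, 303 and 284 in IGF-1 arrays and 238, 240 and 229 in control arrays, a rise of 0.38 ± 0.11 (adjusted p = 0.038). The IGF-1 values spread more widely than the control values without overlap, and the call was lost without any 1 array but IGF-1 3 (highest adjusted p 0.105). Aurkb, the kinase of the chromosomal passenger complex, had a difference of 0.17 ± 0.10 (adjusted p = 0.29). Plk4, which starts centriole duplication, had one of 0.08 ± 0.10 (adjusted p = 0.63), and neither passed.

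None of the 5 tested genes of the spindle assembly checkpoint passed (0 rose and 0 fell), although all 5 differences were positive, from 0.07 to 0.27. On the scale of the hybridization controls 4 of the 5 passed as higher, namely Bub1 (0.55), Ttk (0.53), Mad2l1 (0.48) and Bub3 (0.45). On that scale 1691 of all 6895 genes tested rose, and the median of all genes was 0.26. Ttk encodes the kinase MPS1, which sets the checkpoint signal going. It measured 132, 168 and 159 in IGF-1 arrays and 129.0, 128.6 and 113 in control arrays, a difference of 0.27 ± 0.12 (adjusted p = 0.16) with no overlap. Bub1, a checkpoint kinase of the kinetochore, gave 483, 396 and 302 in IGF-1 arrays and 310, 322 and 321 in control arrays. IGF-1 3 lay below all control arrays, and the difference of 0.27 ± 0.15 did not pass (adjusted p = 0.25). The remaining checkpoint genes had overlapping groups. They were Mad2l1 (0.20 ± 0.16), which inhibits CDC20, Bub3 (0.16 ± 0.13), which brings the BUB kinases to kinetochores, and Bub1b (0.07 ± 0.10), which encodes BUBR1.

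Genes listed under APC/C activation and mitotic exit, with Cdca3 of mitotic entry among them, were split. Of 4 tested, 2 rose, 0 fell, and the 2 that did not pass were lower. Ube2c encodes the ubiquitin-conjugating enzyme that works with the APC/C. It measured 1606, 1373 and 1427 in IGF-1 arrays and 1197, 1152 and 1030 in control arrays, a rise of 0.38 ± 0.10 (adjusted p = 0.027). Cdca3, which encodes a protein that triggers mitotic entry, gave 567, 501 and 550 in IGF-1 arrays and 382, 415 and 467 in control arrays. Its rise of 0.35 ± 0.10 was the closest to the threshold of the members called (adjusted p = 0.048). In both genes the groups did not overlap. A dimmer tested probe set of Cdca3 did overlap and did not pass (0.30, adjusted p = 0.25). The call of Ube2c was lost without any 1 array but control 1 (highest adjusted p 0.0852), and that of Cdca3 without any 1 array but control 3 (highest adjusted p 0.131). With the replicate number as a block Cdca3 did not pass (adjusted p = 0.057), nor did it with quantile normalization (adjusted p = 0.051).

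The other members of this group were lower. Pttg1 encodes securin, the inhibitor of separase that the APC/C destroys. It measured 570, 618 and 669 in IGF-1 arrays and 746, 698 and 789 in control arrays, with no overlap. The difference of -0.26 ± 0.10 did not pass (adjusted p = 0.096), it was 0.02 with scaling to the hybridization controls, and the 2 dimmer probe sets of the gene gave -0.01 and 0.02. Cdc20, the APC/C activator held back by the checkpoint, gave 835, 851 and 853 in IGF-1 arrays and 874, 873 and 974 in control arrays. Its difference of -0.10 ± 0.09 (adjusted p = 0.50) turned to 0.19 with scaling to the hybridization controls.

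Among centromere and kinetochore genes, Cenpa alone fell of the 7 tested and 0 rose. By sign 5 were higher and 2 lower, with a median difference of 0.08. Cenpa encodes the histone H3 variant that marks centromeres. Its signal was 251, 260 and 216 in IGF-1 arrays, against 351, 333 and 314 in control arrays. Every IGF-1 array was below every control array, and the fall was -0.44 ± 0.11 on the log2 scale (adjusted p = 0.022). The call was lost without IGF-1 3, control 1 or control 2 (highest adjusted p 0.0821). On the scale of the hybridization controls the difference was -0.16 and did not pass.

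The 3 measured subunits of the NDC80 complex, which binds microtubule ends, had differences of both signs. Ndc80 measured 140, 123 and 109 in IGF-1 arrays and 203, 157 and 135 in control arrays, a difference of -0.36 ± 0.15 that did not pass (adjusted p = 0.14) with overlapping groups. Its partner Nuf2 had a difference of 0.08 ± 0.10. Spc25, of the complex's inner end, had one of 0.25 ± 0.19, with 156 in IGF-1 1 and 86.3 in IGF-1 3. Neither passed (adjusted p = 0.66 and 0.41). Cenpk (0.14 ± 0.11) and Cenph (0.02 ± 0.17), parts of the inner kinetochore, and Cenpf (0.13 ± 0.10), a large protein of the outer kinetochore, did not pass either. Cenpe, a kinesin that carries chromosomes to the spindle equator, averaged below the filter, at 41.8, 38.5 and 37.8 in IGF-1 arrays and 69.7, 51.8 and 44.0 in control arrays, and was not tested.

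The 2 measured genes of the chromosomal passenger complex beside Aurkb did not pass and had positive differences. Both passed on the scale of the hybridization controls (0.55 for Birc5 and 0.48 for Incenp), where 1691 of all 6895 genes tested rose. Birc5 encodes survivin, which brings the complex to centromeres. It gave 527, 497 and 518 in IGF-1 arrays and 435, 423 and 414 in control arrays. The groups did not overlap, but the difference of 0.27 ± 0.09 missed the threshold (adjusted p = 0.065). Incenp, the scaffold that activates Aurora B, had a difference of 0.20 ± 0.11 in its brightest probe set (adjusted p = 0.24), while a dimmer one rose by 0.56 ± 0.13 (adjusted p = 0.019). The dimmest had a difference of 0.35 ± 0.11 and just missed the threshold (adjusted p = 0.051). In all 3 probe sets every IGF-1 array was above every control array.

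Among the mitotic kinesins, motor proteins that shape the spindle, 1 of 6 fell, 0 rose and 5 did not pass. Kif11 encodes Eg5, the motor that pushes spindle poles apart, and it had the lowest difference of all members. It measured 344, 280 and 289 in IGF-1 arrays, against 458, 417 and 385 in control arrays. The groups did not overlap, and the difference was -0.45 ± 0.11 (adjusted p = 0.025). A second probe set also fell (-0.38, adjusted p = 0.042) and another was lower without passing (-0.33, adjusted p = 0.14). The call of the brightest was lost without IGF-1 2, IGF-1 3, control 1 or control 2 (highest adjusted p 0.0923). On the scale of the hybridization controls the difference was -0.17 and did not pass.

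The other 5 kinesins all had positive differences. Kif22, a motor on chromosome arms, measured 893, 770 and 823 in IGF-1 arrays and 815, 383 and 889 in control arrays. Its difference of 0.33 ± 0.25 (adjusted p = 0.41) rested on control 2 and was -0.04 without it. Its middle probe set by signal rose by 0.48 ± 0.12 (adjusted p = 0.027). Kif4 (0.25 ± 0.13), of the central spindle, had no overlap and did not pass (adjusted p = 0.22). Kif20a (0.23 ± 0.14) and Kif23 (0.22 ± 0.16), motors of the central spindle in cytokinesis, and Kif2c (0.15 ± 0.13), which takes microtubules apart at centromeres, had overlapping groups. The dimmer tested probe sets of Kif2c had no overlap and did not pass (0.29 and 0.23, adjusted p = 0.10 and 0.16).

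Of the 3 spindle microtubule-associated proteins, 2 rose, 0 fell and 1 did not pass. Tpx2 encodes the protein that activates Aurora A and nucleates spindle microtubules. Its signal was 338, 257 and 273 in IGF-1 arrays, against 195, 166 and 170 in control arrays. The lowest IGF-1 array was above the highest control array, and the rise was 1.58-fold (0.66 ± 0.12, adjusted p = 0.0074). Hmmr, which encodes a spindle pole protein and hyaluronan receptor, gave 522, 449 and 408 in IGF-1 arrays and 337, 320 and 342 in control arrays. The groups did not overlap, with a difference of 0.44 ± 0.11 (adjusted p = 0.023), a call lost without IGF-1 1, IGF-1 2 or control 2 (highest adjusted p 0.0773). With the mean of its probe sets in place of the brightest, the difference was 0.21 and did not pass (adjusted p = 0.19). Its 4 tested probe sets had differences between -0.23 and 0.44, and the brightest alone passed. Nusap1, which bundles spindle microtubules, had a difference of 0.11 ± 0.10 (adjusted p = 0.53).

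**Figure D4:**
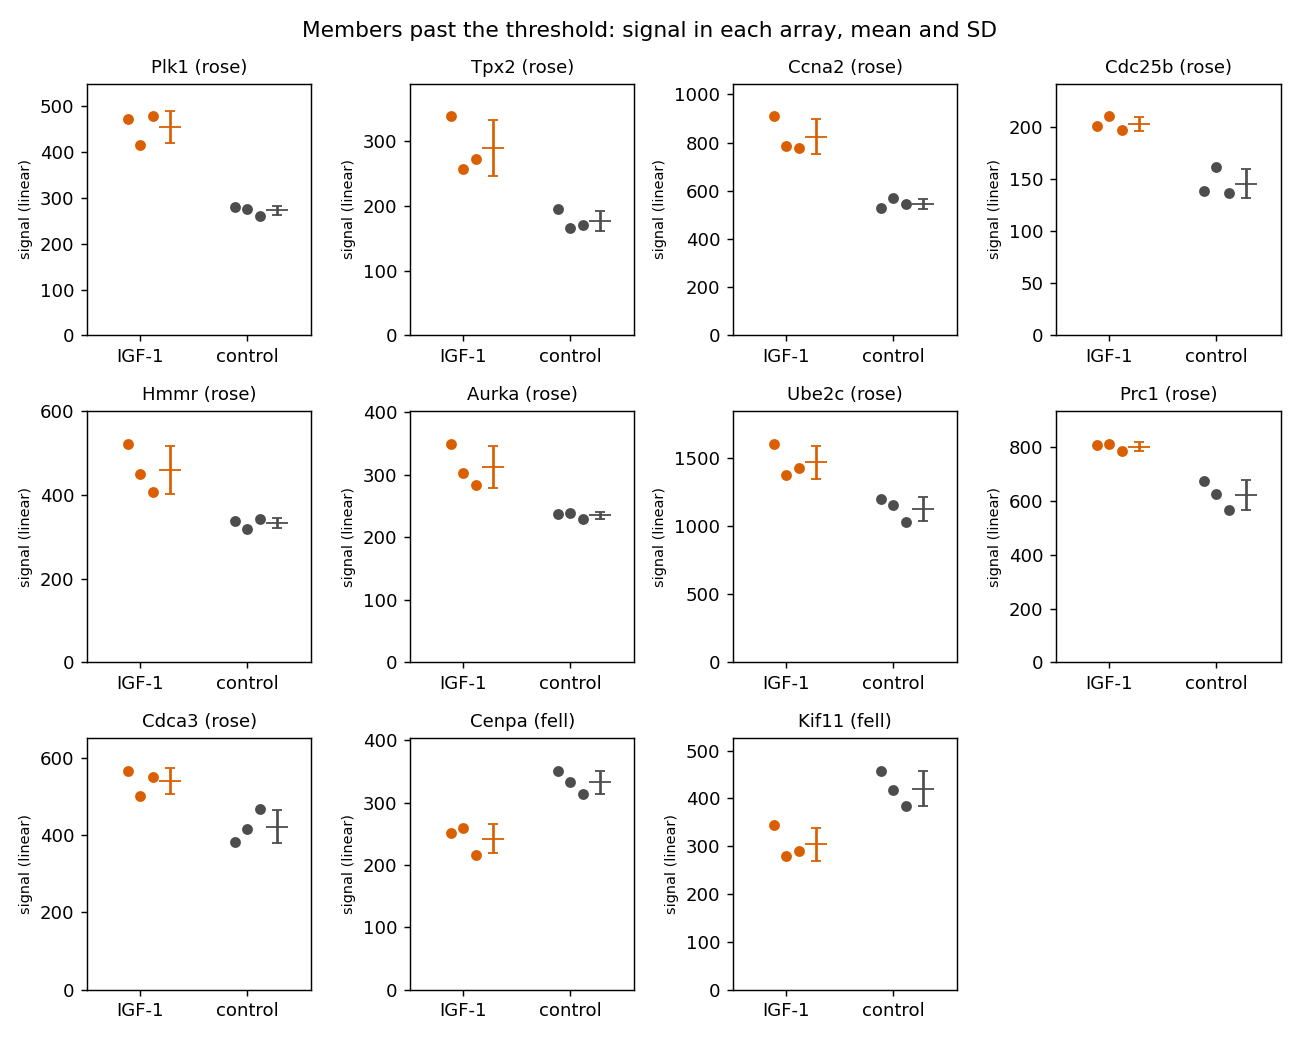
Signal of the 11 members past the threshold in each of the 3 IGF-1 and 3 control arrays (points, linear scale from 0), with the mean and SD of each group beside them. In all 11 genes the groups did not overlap; Plk1 averaged 456 ± 34.6 in IGF-1 and 273 ± 10.3 in control arrays, and Cenpa 242 ± 23.4 in IGF-1 and 333 ± 18.4 in control arrays (SD, n = 3 each).

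Genes of chromosome condensation and the chromosome surface had the median nearest to 0 of all roles. None of 5 tested members passed (0 rose and 0 fell), and their differences ran from -0.11 to 0.14 with a median of 0.03. Mki67 encodes the proliferation marker Ki-67, which coats mitotic chromosomes. It measured 1642, 1395 and 1451 in IGF-1 arrays and 1576, 1653 and 1600 in control arrays, with the groups overlapping. Its difference of -0.11 ± 0.09 did not pass (adjusted p = 0.46) and was 0.18 with scaling to the hybridization controls. Top2a, the topoisomerase that untangles sister chromatids, had a difference of 0.14 ± 0.13 (adjusted p = 0.51). The condensin genes Ncapd2 (0.05 ± 0.11), Smc2 (0.03 ± 0.12) and Smc4 (-0.07 ± 0.10, but 0.21 on the scale of the hybridization controls) did not pass, with adjusted p of 0.82, 0.88 and 0.69.

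In cytokinesis, 1 of 4 members rose, 0 fell and 3 did not pass. Prc1, which cross-links the microtubules of the central spindle, measured 809, 814 and 785 in IGF-1 arrays and 674, 627 and 566 in control arrays. The IGF-1 arrays were close together and above all control arrays, with a rise of 0.36 ± 0.09 (adjusted p = 0.028). A dimmer probe set of the gene had overlapping groups and did not pass (0.35, adjusted p = 0.15). The call was lost without any 1 array but control 1 (highest adjusted p 0.0903). Ect2, the exchange factor that activates RhoA (0.12 ± 0.16), Racgap1, its central spindle partner (0.03 ± 0.11), and Anln, an actin-binding protein of the contractile ring (-0.09 ± 0.14, but 0.18 on the scale of the hybridization controls), did not pass.

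Several members could be read from more than 1 probe set. Of 16 members with 2 or more tested probe sets, all differences had 1 sign in 11, and the calls were the same in 10. The probe sets of Bub3, Cenpf, Hmmr, Plk4 and Pttg1 differed in sign. Those of Cdca3, Hmmr, Incenp, Kif11, Kif22 and Prc1 differed in call. Over all 69 tested probe sets of members, 12 rose and 3 fell (17.4% and 4.35%), against 6.82% and 8.28% of all 11313 probe sets tested.

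A further list held 133 other genes of mitosis that are no members. Of 88 tested, 13 rose, 3 fell and 72 did not pass, against 7.05% and 8.05% of all tested genes that rose and fell. Their median was 0.06, with 50 higher and 38 lower, and whether it differed from that of the members was not tested. With 1 array left out, 5 to 12 rose. The fewest were left without IGF-1 2 or control 2, then 6 without IGF-1 1 and 8 without IGF-1 3 or control 3. With scaling to the hybridization controls 29 of the 88 rose and 0 fell, while 1691 of all 6895 genes tested rose and 141 fell. Anapc11, the RING subunit of the APC/C, measured 284, 269 and 294 in IGF-1 arrays and 167, 156 and 164 in control arrays (0.74 ± 0.10, adjusted p = 0.0013), with no overlap. Of 13 tested APC/C genes 2 rose and 0 fell, the second being Fzr1, the coactivator CDH1 that takes over from CDC20 (0.51 ± 0.12). Gtse1, a spindle protein that is also a p53 regulator, rose by 0.70 ± 0.12. Tubg1, which encodes γ-tubulin, rose by 0.49 ± 0.11. Pmf1, of the kinetochore MIS12 complex, rose by 0.59 ± 0.15. The calls of Anapc11 and Gtse1 held without any 1 array. Without 1 array the calls of Fzr1 (any IGF-1 array or control 2), Tubg1 (IGF-1 1, IGF-1 2, control 2 or control 3) and Pmf1 (IGF-1 1, IGF-1 2, control 1 or control 2) were lost, with a highest adjusted p of 0.0694, 0.0712 and 0.108.

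Among 9 tested cohesin genes, whose products hold sister chromatids together, 2 fell, 1 rose and 6 did not pass. Smc3, a core subunit, measured 338, 360 and 341 in IGF-1 arrays and 496, 585 and 444 in control arrays (-0.53 ± 0.11, adjusted p = 0.013). Its groups did not overlap, and on the scale of the hybridization controls the difference was -0.25, without a call. The call was also lost with the mean of its probe sets in place of the brightest. Stag2, another subunit, fell by 0.46 and Cdca5, which encodes the protector sororin, rose by 0.38. Both of these were named after their values were seen. None of 4 tested genes of the other condensin subunits passed, with a median of -0.09.

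Transcription factors that act on mitotic promoters included 3 that rose of 11 tested, 0 that fell and 8 that did not pass. E2f4, a DNA-binding subunit of the DREAM repressor, had the largest difference of the whole wider list. It measured 283, 277 and 306 in IGF-1 arrays and 152, 165 and 165 in control arrays, a 1.73-fold rise (0.79 ± 0.10, adjusted p = 0.0012). The groups stood far apart, and the call held without any 1 array. Lin37, a subunit of the same complex, rose by 0.55 ± 0.13, a call lost without IGF-1 2, IGF-1 3 or control 2 (highest adjusted p 0.0694). The third, Mybl2, an activator of late cell cycle genes, rose by 0.49 ± 0.12 (adjusted p = 0.025). Foxm1, its partner at mitotic promoters, measured 204, 265 and 207 in IGF-1 arrays and 259, 300 and 221 in control arrays, a difference of -0.20 ± 0.14 that did not pass (adjusted p = 0.38). Mybl2 and Foxm1 were named after their values were seen.

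**Figure D5:**
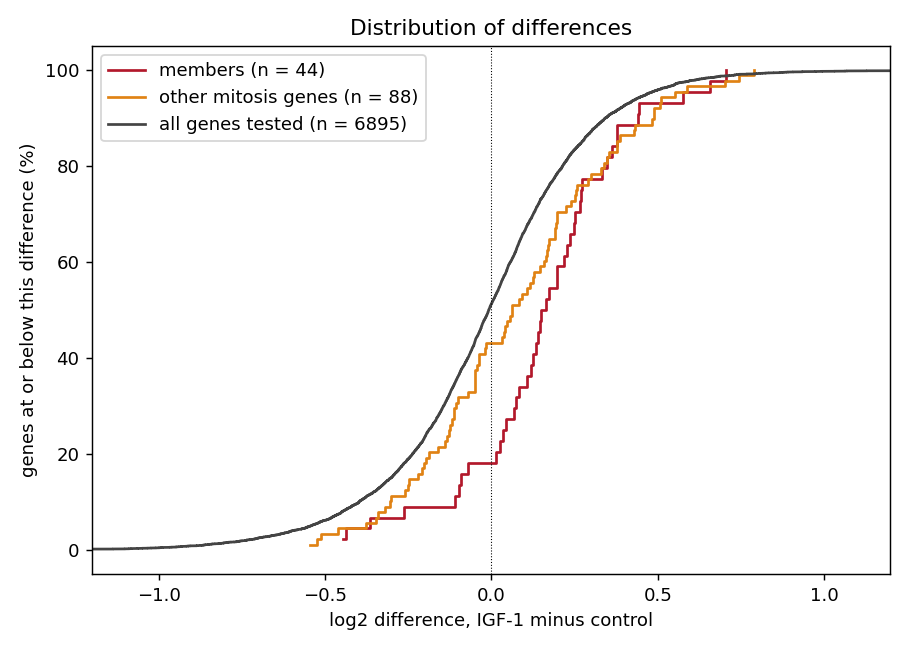
Cumulative share of genes (%) against the log2 difference, IGF-1 minus control, for the 44 tested members, the 88 other tested mitosis genes and all 6895 tested genes. Over the middle of the range the curve of the members lies right of the others, with medians of 0.16, 0.06 and -0.01, and 81.8% of members above 0 against 48.7% of all genes.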

How the data were processed

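Total RNA was labelled by oligo-dT priming and measured on 1-colour Affymetrix arrays, per the labels' protocols. Each deposited intensity is a linear signal of 1 probe set. The authors used MAS5 and GCOS, per the submitters' processing notes, which name no version. The trimmed mean (lowest and highest 2% left out) was the same in all 6 arrays, so differences are relative to an equal overall signal. Detection calls were not used, and precision is limited by having 3 arrays a group.

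Signals were tested as log2(signal + 15.57), the 25th percentile of all signals being the pseudocount, which understates changes of dim probe sets. Probe sets with a mean signal over 53.61, the median, were tested (11313 probe sets, 6895 genes), without the 64 control probe sets. limma 3.58.1 in R 4.3.3 (lmFit, eBayes with trend, two-sided) compared IGF-1 with control, with Benjamini-Hochberg adjustment over all probe sets tested and a threshold of 0.05. All p-values are from this fit. Errors of log2 differences are standard errors. Gene names came from the platform annotation (20380 probe sets with 1 symbol, 691 with several, 1555 with none listed), and 46 of 46 member symbols matched RefSeq. Promoters are RefSeq's, GRCm38.p6.

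Simulated data (10 sets of 11313 probe sets, 200 changed) tested the fit: 46.9% of changes of 0.5 and 98% of changes of 1 (log2) were called and 7.2% of calls were false. More probe sets were called in the real data (772 rose and 937 fell) than were changed in the simulation, so these shares need not hold there. Same-numbered arrays deviated together with correlations of 0.12, -0.03 and 0.13, and the other pairings with -0.15 to 0.03. The numbers were not taken as pairs in the main fit, and whether they mark pairs is not labelled. The rule for naming genes was every member, with array values for those past the threshold and the 6 next in size, and the 8 largest calls of the wider mitosis list. Array values of Cdk1, Cdc20, Mki67, Cdc25c and Cenpe, and some of Spc25, were given outside this rule. Members and lists were chosen with earlier results of these data known. Alternatives covered the pseudocount, filter, normalization, eBayes settings, array weights, probe set choice, the replicate number as a block and each array left out. Neither labels nor file named a batch. Python 3.11.15 (pandas 2.3.3) and matplotlib 3.10.9 were used for tables and plots.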

Additional observations from a re-analysis of the deposited data

How the results depend on the processing

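The direction of all 11 calls among members held in the 18 alternatives wherever a value was given, and 3 (Plk1, Ccna2, Tpx2) stayed past the threshold in every one. Of 158 values for the members that rose 40 lost the call, and of 35 for those that fell 10 did. Members rising were 9, but 4 with no filter, 5 with eBayes without a trend and 21 with scaling to hybridization controls, and members falling were 2, but 1 with no filter, 0 with that scaling and 1 without x, s, a and f probe sets (30 members tested). The same scaling moved the member median to 0.44 and that of all genes to 0.26, a gap of 0.18 against 0.16 without it. The median of all genes was 0.0046 with no filter and 0.015 with quantile normalization. Over all probe sets, 772 rising and 937 falling became 448 and 498 with no filter, 2740 and 246 with that scaling, and 474 rising without the suffixed probe sets. Over genes, 486 rising and 555 falling became 287 and 286 with no filter, and 1691 and 141 with that scaling. Other mitosis genes rising were 7 with no filter, 29 with that scaling and 8 without the suffixed probe sets, and those falling 0 with that scaling and 1 with the mean of probe sets per gene. The cause of these moves was not tested.

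With 1 array left out, members rising were 3 to 6, members falling 0 to 2, the member median 0.11 to 0.18 and that of all genes -0.014 to 0.0016. Probe sets rising were 406 to 659 and falling 491 to 792, genes rising 248 to 415 and falling 286 to 483, and other mitosis genes rising 5 to 12 and falling 1 to 4. Among members that did not pass, 21 of 581 values changed sign, none of them called. With scaling to hybridization controls these were Cdc20 (0.19), Pttg1 (0.022), Mki67 (0.18), Smc4 (0.21) and Anln (0.18), without suffixed probe sets Bub3 (-0.047) and Pttg1 (0.020), and with array weights Cenph (-0.0040). With 1 array left out, Cenph ran between -0.16 and 0.14, Kif22 between -0.041 and 0.55, Smc2 between -0.081 and 0.091, Smc4 between -0.14 and 0.019, and Ncapd2 between -0.043 and 0.11. Likewise Ect2 ran between -0.010 and 0.26, Racgap1 between -0.067 and 0.12, and Anln between -0.18 and 0.042. The cause of these changes was not tested.

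With the replicate number as a block, 8 members rose (Cdca3 was lost) and 2 fell, 754 probe sets rose and 978 fell, and 478 genes rose and 589 fell. IGF-1 1 and IGF-1 3 correlated best with the control of their own number (0.12 and 0.13), but IGF-1 2 did not (-0.03). Whether the numbers mark a shared batch or order is not labelled and was not tested.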
